A study of Homo sapiens with 12 samples.

Results

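The immediate early genes described here are FOS, FOSB, FOSL1, EGR3, KLF4 and DUSP1, 6 of the 13881 genes that could be named on the array. They were taken by the gene symbol in the platform annotation, which gave 1 probe for each gene and 6 of 27561 probes in all (PH_hs_0002259 for FOS, PH_hs_0004361 for FOSB, PH_hs_0029612 for FOSL1, PH_hs_0004237 for EGR3, PH_hs_0032978 for KLF4 and PH_hs_0010276 for DUSP1). They were measured in cells labelled HepG2, a line established from a human hepatocellular carcinoma. The 12 single-colour arrays (Cy5) fall into 4 groups of 3: mock-treated control cells, and cells exposed to 25 µM of glycyrrhizin, silymarin or ursodeoxycholic acid. Glycyrrhizin is the sweet saponin of liquorice, silymarin the flavonolignan extract of milk thistle, and ursodeoxycholic acid a bile acid, and all are used as hepatoprotective agents. All cells were grown in DMEM with 10% fetal bovine serum, which contains growth factors, and how long the exposure lasted is not stated there. Nothing in the labels ties the 3 arrays of a group to separate cultures, so p-values measure the spread between arrays, which may be technical.

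Immediate early genes are transcribed within minutes of a growth factor, a stress or a hormone, from factors already present in the cell, and their transcripts are short-lived. FOS, FOSB and FOSL1 (the protein Fra-1) pair with JUN proteins to form AP-1, which binds DNA through a basic leucine zipper. EGR3 and KLF4 bind DNA through zinc fingers, and DUSP1 is a phosphatase that switches off the MAP kinases that induce these genes. In liver cells the family is known for its induction after partial hepatectomy and by mitogens.

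Values are log2 of the deposited intensity, and the median named gene lay at 6.7. On that scale the probes of EGR3 (mean over the 12 arrays 9.57), KLF4 (8.71), DUSP1 (8.4) and FOS (7.28) were brighter than the median gene, and those of FOSL1 (6.55) and FOSB (5.72) were dimmer. A probe's brightness depends on its sequence as well as on the transcript, so levels are compared between groups and not between genes. Array medians lay between 85.75 and 86.58 on the linear scale. Silymarin replicate 2 and ursodeoxycholic acid replicate 1 stood apart, with a median r with the other arrays of 0.911 and 0.908 against 0.922 to 0.938 for the rest, and with the highest value of the 12 arrays for 17.3% and 12.5% of all genes. Of 10 hepatocyte markers 8 were measured, with probe means from 5.17 to 7.77, and ALB and HNF4A were not analysed here. Their median was 6.84, near the 6.7 of all named genes, and all 8 lay below the upper quartile of named genes (8.27). Probe means lay between 4.57 and 9.92 for 4 leukocyte markers (median 5.39) and between 6.03 and 10.13 for 4 fibroblast and stellate cell markers (6.1). For 5 endothelial and cholangiocyte markers they lay between 5.23 and 9.63 (7.68). The brightest marker of each of these sets thus read brighter than any hepatocyte marker. This check did not bear out the label HepG2 and did not settle the cell type. In limma 0 of these 21 markers passed in any comparison, and at an unadjusted p under 0.05 against control stood 2 hepatocyte markers with glycyrrhizin and 2 with ursodeoxycholic acid, all lower (3.24% and 2.74% of all genes on that side), and DCN with both, higher. Of the 8 hepatocyte markers 3 lay above control with glycyrrhizin, 4 with silymarin and 5 with ursodeoxycholic acid, so they did not move in 1 direction. The fetal liver protein AFP differed from control by −0.73 with glycyrrhizin (SE 0.2, adjusted p = 0.608), 0.1 with silymarin and 0.27 with ursodeoxycholic acid, and transferrin (TF) by −0.74, −0.54 and −0.72 (SE 0.27). The matrix genes DCN and COL1A2 differed by 0.5 and 0.63 with glycyrrhizin, −0.04 and 0.35 with silymarin and 0.53 and 0.35 with ursodeoxycholic acid. The leukocyte genes CD3E and CD14 differed by 0.57 and 0.28, 0.63 and −0.12, and 0.62 and 0.07 with the agents in that order, and the endothelial genes PECAM1 and VWF by 0.47 and 0.21, 0.22 and 0.02, and −0.43 and 0.26. The part of these markers in the results was not tested. In bulk RNA, fewer cells that express a gene and less RNA per cell cannot be told apart.

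The bases just before the transcription start are shown for the 4 members found in the RefSeq promoter table (build GRCh38.p14), because induction of this family acts in part through elements close to the start. FOSL1 and EGR3 were not matched. Each line gives the 250 bases that end at the base before the annotated start, 5′ to 3′ on the strand of the gene. Capitals mark the core TGACG of a cyclic AMP response element (CRE) on either strand, the full CRE TGACGTCA, which contains the core on both strands, and the TATA box letters TATAAA.
FOS, chr14:75278578-75278827, plus strand: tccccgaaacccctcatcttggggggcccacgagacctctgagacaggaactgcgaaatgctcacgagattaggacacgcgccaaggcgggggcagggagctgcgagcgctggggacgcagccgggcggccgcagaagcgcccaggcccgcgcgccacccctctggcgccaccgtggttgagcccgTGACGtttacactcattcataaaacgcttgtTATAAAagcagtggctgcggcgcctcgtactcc
FOSB, chr19:45467746-45467995, plus strand: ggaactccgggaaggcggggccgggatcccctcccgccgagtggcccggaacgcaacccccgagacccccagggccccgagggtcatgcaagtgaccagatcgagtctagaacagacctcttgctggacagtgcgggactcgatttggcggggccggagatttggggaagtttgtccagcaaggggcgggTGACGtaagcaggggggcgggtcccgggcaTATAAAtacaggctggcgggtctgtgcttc
DUSP1, chr5:172771196-172771445, minus strand: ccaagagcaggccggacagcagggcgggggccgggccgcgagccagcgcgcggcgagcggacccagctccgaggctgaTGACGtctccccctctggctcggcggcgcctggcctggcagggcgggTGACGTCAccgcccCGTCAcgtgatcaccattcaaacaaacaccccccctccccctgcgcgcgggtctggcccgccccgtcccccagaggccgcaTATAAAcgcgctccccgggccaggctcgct
KLF4, chr9:107489770-107490019, minus strand: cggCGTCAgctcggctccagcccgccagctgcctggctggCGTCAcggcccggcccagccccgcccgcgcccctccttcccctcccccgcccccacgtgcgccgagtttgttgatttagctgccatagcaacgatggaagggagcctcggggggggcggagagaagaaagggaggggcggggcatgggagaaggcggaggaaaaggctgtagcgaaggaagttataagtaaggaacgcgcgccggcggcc

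The CRE core was found before all 4 of these genes and in 21.2% of 35116 windows of the same length in that table. It began 64 bases before the start in FOS and 60 bases before it in FOSB, while in KLF4 the nearest began 210 bases before it. DUSP1 alone held the full CRE, beginning 125 bases before the start, which 1.65% of all windows held. TATAAA stood before FOS, FOSB and DUSP1, and in 10.7% of all windows. On either strand, the AP-1 site TGACTCA (4.2% of all windows), the EGR site GCGTGGGCG (0.72%) and the CArG box bound by serum response factor (1.16%) were not found in these 4 windows. These are letter matches, and binding was not measured. Bases farther upstream and bases after the start were not searched. The search therefore cannot show that a gene lacks an AP-1 site, an EGR site or a CArG box.

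FOS, the founding AP-1 subunit, read highest with silymarin and lowest with glycyrrhizin. In control it read 7.46, 7.24 and 7.79, with glycyrrhizin 5.28, 7.15 and 6.96, with silymarin 8.46, 8.67 and 8.26, and with ursodeoxycholic acid 7.12, 6.25 and 6.68, for replicates 1, 2 and 3 in turn. All 3 silymarin arrays lay above the other 9, and the glycyrrhizin and ursodeoxycholic acid arrays all lay below control. The group means were 7.5 ± 0.28 (SD, n = 3) in control, 6.46 ± 1.03 with glycyrrhizin, 8.46 ± 0.2 with silymarin and 6.68 ± 0.43 with ursodeoxycholic acid, so the order was silymarin, control, ursodeoxycholic acid, glycyrrhizin, and the last 2 overlapped. Against control the log2 difference was 0.96 with silymarin (SE 0.44), −1.04 with glycyrrhizin (SE 0.44) and −0.81 with ursodeoxycholic acid (SE 0.44). The adjusted p-values from limma were 0.931, 0.815 and 0.895, so none passed. Without glycyrrhizin replicate 1, the lowest array, the glycyrrhizin difference was −0.45. The glycyrrhizin mean then lay above that of ursodeoxycholic acid by 0.37, so the order of these groups rests on that array. Without silymarin replicate 2 the silymarin difference was 0.86, and without ursodeoxycholic acid replicate 1 that of ursodeoxycholic acid was −1.03.

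FOSB, a close relative of FOS, was dim and read lowest with ursodeoxycholic acid. It read 6.34, 6.18 and 5.57 in control, 5.56, 6.06 and 5.88 with glycyrrhizin, 5.73, 6.99 and 6.01 with silymarin and 4.59, 3.87 and 5.83 with ursodeoxycholic acid. Replicate 3 of the last group lay inside the control range and the other 2 lay below every array of the other groups. The log2 difference from control was −1.26 with ursodeoxycholic acid (SE 0.48, adjusted p = 0.879 from limma), −1.18 without its replicate 1 and −0.82 without its replicate 2. With silymarin it was 0.22 and with glycyrrhizin −0.2, both with an SE of 0.48, and the silymarin value was −0.16 without silymarin replicate 2.

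FOSL1, which encodes Fra-1, read lowest with ursodeoxycholic acid, and its silymarin arrays lay within the control range. It read 6.7, 6.74 and 7.39 in control, 6.33, 6.6 and 6.74 with glycyrrhizin, 6.92, 6.8 and 6.76 with silymarin and 4.85, 6.42 and 6.37 with ursodeoxycholic acid. The ursodeoxycholic acid arrays all lay below control, and replicate 1, 1 of the 2 arrays that stood apart, lay far below the others. The log2 difference from control was −1.06 with ursodeoxycholic acid (SE 0.38, adjusted p = 0.879 from limma) and −0.55 without that array. With silymarin it was −0.12 (95% interval −0.96 to 0.73) and with glycyrrhizin −0.38 (−1.23 to 0.46).

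EGR3, a zinc finger factor of the early growth response family, had the tightest replicates of the 6, with a residual SD of 0.2 log2 units. It read 9.36, 9.63 and 9.1 in control, 9.66, 9.75 and 9.44 with glycyrrhizin, 10.1, 9.91 and 10.01 with silymarin and 9.43, 9.4 and 9.03 with ursodeoxycholic acid. Every silymarin array lay above the other 9, and control overlapped with both other agents. The log2 difference from control was 0.65 with silymarin (SE 0.2, 1.56-fold, adjusted p = 0.836 from limma), 0.25 with glycyrrhizin (95% interval −0.19 to 0.7) and −0.07 with ursodeoxycholic acid (−0.52 to 0.37). Without silymarin replicate 2 the silymarin difference was 0.69.

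KLF4, a zinc finger factor that takes part in growth arrest and in reprogramming, read 9.09, 8.45 and 9.05 in control and 8.37, 8.49 and 7.82 with glycyrrhizin. It read 9.42, 9.74 and 9.01 with silymarin and 8.41, 8.23 and 8.43 with ursodeoxycholic acid. Silymarin overlapped with control and lay above both other agents, whose arrays overlapped with each other. The log2 difference from control was 0.53 with silymarin, −0.64 with glycyrrhizin and −0.51 with ursodeoxycholic acid, each with an SE of 0.27 and adjusted p-values from limma of 0.932, 0.815 and 0.895. Control replicate 2 was the lowest control array, and without it these differences were 0.32, −0.84 and −0.71. Without silymarin replicate 2 the silymarin difference was 0.35.

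DUSP1, the feedback phosphatase, is also induced by glucocorticoids. It read 8.26, 8.3 and 8.25 in control, 7.75, 8.5 and 7.53 with glycyrrhizin, 8.9, 9.61 and 9.05 with silymarin and 8.83, 7.89 and 7.92 with ursodeoxycholic acid. The silymarin arrays lay above the other 9, and 1 array of each other agent lay above control and 2 below it. The log2 difference from control was 0.91 with silymarin (SE 0.33, 1.88-fold, adjusted p = 0.865 from limma) and 0.7 without silymarin replicate 2. It was −0.35 with glycyrrhizin and −0.06 with ursodeoxycholic acid, with 95% intervals of −1.07 to 0.38 and −0.78 to 0.67. Without ursodeoxycholic acid replicate 1, the highest of that group, the latter was −0.37.

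**Figure D1:**
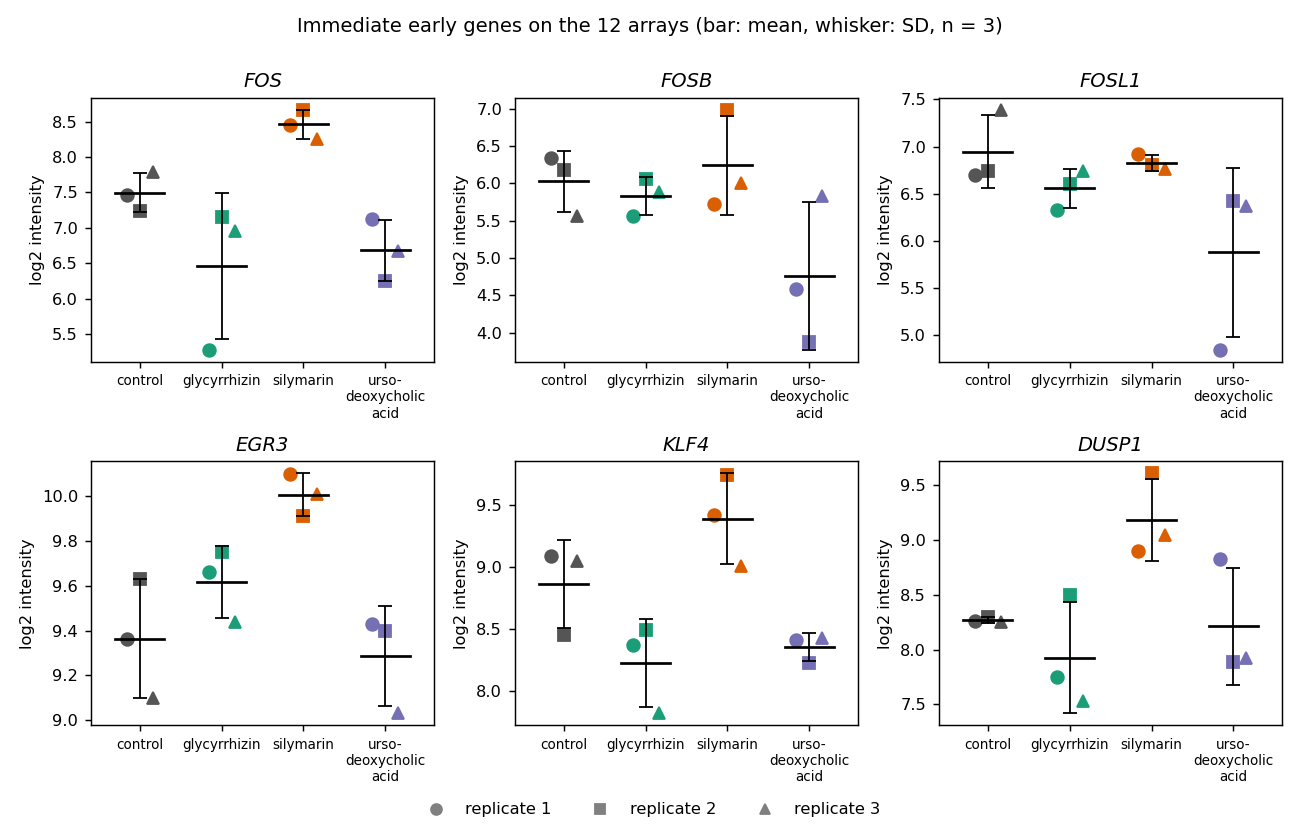
Log2 intensity (vertical axis) of each gene on each array, by group (horizontal axis), with symbols for the replicate number, a bar for the mean and whiskers for the SD of 3 arrays. The silymarin arrays lie above the other 9 for FOS, EGR3 and DUSP1, and the low glycyrrhizin array of FOS (5.28) and ursodeoxycholic acid array of FOSL1 (4.85) stand out.

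Each agent against control. With silymarin 5 of the 6 genes had a mean above control, FOSL1 being the exception, with ursodeoxycholic acid 0 of 6 did and with glycyrrhizin 1 did, EGR3. Over all genes 52.3%, 52.3% and 52.5% of means lay above control in these comparisons. The members were chosen with earlier results of these data known. Counts of members set beside such shares, here and below, therefore describe the members and are not an independent test. The median log2 difference of the 6 was 0.59 with silymarin, −0.66 with ursodeoxycholic acid and −0.36 with glycyrrhizin, against 0.02 over all genes in each case. The silymarin arrays lay above the other 9 for FOS, EGR3 and DUSP1 and for 1.63% of all genes, and silymarin had the highest group mean for the 5 members other than FOSL1 and for 28.1% of all genes. The groups did not overlap for 3 members with silymarin on the higher side (FOS, EGR3 and DUSP1, against 6.21% of all genes), for 3 with ursodeoxycholic acid on the lower side (FOS, FOSL1 and KLF4, against 4.21%) and for 1 with glycyrrhizin on the lower side (FOS, against 5.76%). KLF4 was parted narrowly, its highest ursodeoxycholic acid array at 8.43 and its lowest control array at 8.45. In limma with Benjamini-Hochberg adjustment over 13881 genes, 0 of the 6 passed in any of the 3 comparisons, while 0.0%, 0.0% and 0.0072% of all genes passed with silymarin, ursodeoxycholic acid and glycyrrhizin. At an unadjusted p under 0.05 stood 2 members with each agent, EGR3 and DUSP1 on the higher side with silymarin (3.05% of all genes), FOSB and FOSL1 on the lower side with ursodeoxycholic acid (2.74%), and FOS and KLF4 on the lower side with glycyrrhizin (3.24%). These comparisons share the control arrays, so their values for a gene are not independent of each other. When the 3 agents were averaged and set against control, 2 members lay above it (51.1% of all genes), and they differed by −0.52 (FOSL1) to 0.28 (EGR3), with adjusted p-values of 0.997 in limma, 0.0% of all genes called and 0 members at an unadjusted p under 0.05 (4.56% of all genes).

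Agent against agent. For all members except EGR3, silymarin differed more from glycyrrhizin than from control, and the differences from glycyrrhizin were largest for FOS, DUSP1 and KLF4. FOS averaged 8.46 with silymarin and 6.46 with glycyrrhizin, 4-fold apart (log2 difference −2, 95% interval −2.97 to −1.03), DUSP1 was 2.39-fold apart (−1.26, −1.98 to −0.53) and KLF4 2.24-fold apart (−1.16, −1.75 to −0.57), all lower with glycyrrhizin on 3 of 3 arrays. Their adjusted p-values from limma were 0.153, 0.198 and 0.163, so they did not pass, and 0.0504% of all genes did. At an unadjusted p under 0.05 on the lower side stood these 3 members and 6.11% of all genes. The mean with glycyrrhizin lay above that with silymarin for 0 members and for 51.3% of all genes. EGR3 (−0.39) and FOSL1 (−0.27) also did not overlap between the groups, which made 5 of 6 members against 9.16% of all genes, while FOSB (−0.41) overlapped. FOSL1 was parted narrowly, its highest glycyrrhizin array at 6.74 and its lowest silymarin array at 6.76. Without silymarin replicate 2 the differences were −1.9 for FOS, −1.05 for DUSP1, −0.99 for KLF4, −0.44 for EGR3, −0.28 for FOSL1 and −0.04 for FOSB, and FOS was at −1.41 without glycyrrhizin replicate 1. With a variance trend and robust estimation, which called 1.56% of all genes, FOS, KLF4 and DUSP1 passed as lower with glycyrrhizin (adjusted p = 0.0247, 0.0302 and 0.0497). Without the dimmer 50% of genes, where 2.36% were called, FOS and KLF4 passed (0.0372 and 0.0405), and the hepatocyte marker AFP was also called lower with glycyrrhizin there. FOSB and FOSL1 were among the dimmer genes and were not tested in that setting.

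Against ursodeoxycholic acid, silymarin was the higher group for all 6 members (50% of all genes), with log2 differences of 1.78 for FOS (SE 0.44), 1.48 for FOSB (SE 0.48), 1.03 for KLF4 (SE 0.27), 0.97 for DUSP1 (SE 0.33), 0.95 for FOSL1 (SE 0.38) and 0.72 for EGR3 (SE 0.2). These amount to 3.43-fold for FOS down to 1.65-fold for EGR3. All 6 lay at an unadjusted p under 0.05 on the higher side, as did 5.03% of all genes, and 5 did not overlap between the groups, as for 6.84% of all genes. Because the 6 were chosen with earlier results of these data known, these counts are not an independent test. The adjusted p-values from limma lay between 0.35 (FOS) and 0.552 (FOSL1), so 0 members passed against 0.0504% of all genes, and 0 passed in any alternative setting either. Both comparisons share the silymarin arrays, of which replicate 2 had the highest value of the 12 for FOS, FOSB, KLF4 and DUSP1 (4 members, against 17.3% of all genes). Without that array the difference from ursodeoxycholic acid was 1.68 for FOS, 1.11 for FOSB, 0.86 for KLF4, 0.76 for DUSP1, 0.96 for FOSL1 and 0.77 for EGR3. Without ursodeoxycholic acid replicate 1 it was 0.43 for FOSL1, less than the 0.95 with all arrays by over 1.5 times, and 1.99 for FOS, 1.39 for FOSB, 1.06 for KLF4, 1.28 for DUSP1 and 0.79 for EGR3.

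For FOS, KLF4, DUSP1 and, by little, EGR3, the means with glycyrrhizin and ursodeoxycholic acid lay closer to each other than to silymarin. FOS differed by −0.22 (glycyrrhizin minus ursodeoxycholic acid, 95% interval −1.19 to 0.74), KLF4 by −0.13 (−0.72 to 0.46) and DUSP1 by −0.29 (−1.01 to 0.44); these intervals include 0 and differences over 1 log2 unit for FOS and DUSP1. FOSB (1.07, 0.02 to 2.12) and FOSL1 (0.68, −0.16 to 1.52) read higher with glycyrrhizin, and EGR3 (0.32, −0.12 to 0.77) did so on 3 of 3 arrays, the 1 member whose groups did not overlap (5.76% of all genes on that side). EGR3 was parted narrowly, its lowest glycyrrhizin array at 9.44 and its highest ursodeoxycholic acid array at 9.43. The mean lay higher with glycyrrhizin for 3 members and 49.6% of all genes, and FOSB alone stood at an unadjusted p under 0.05 on that side (2.68%). Without ursodeoxycholic acid replicate 1 the difference was 0.16 for FOSL1, 0.98 for FOSB, 0.4 for EGR3, −0.01 for FOS, −0.11 for KLF4 and 0.02 for DUSP1, and FOSB was at 0.62 without replicate 2. Adjusted p-values from limma ran from 0.854 to 0.953, with 0.0% of all genes called.

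**Figure D2:**
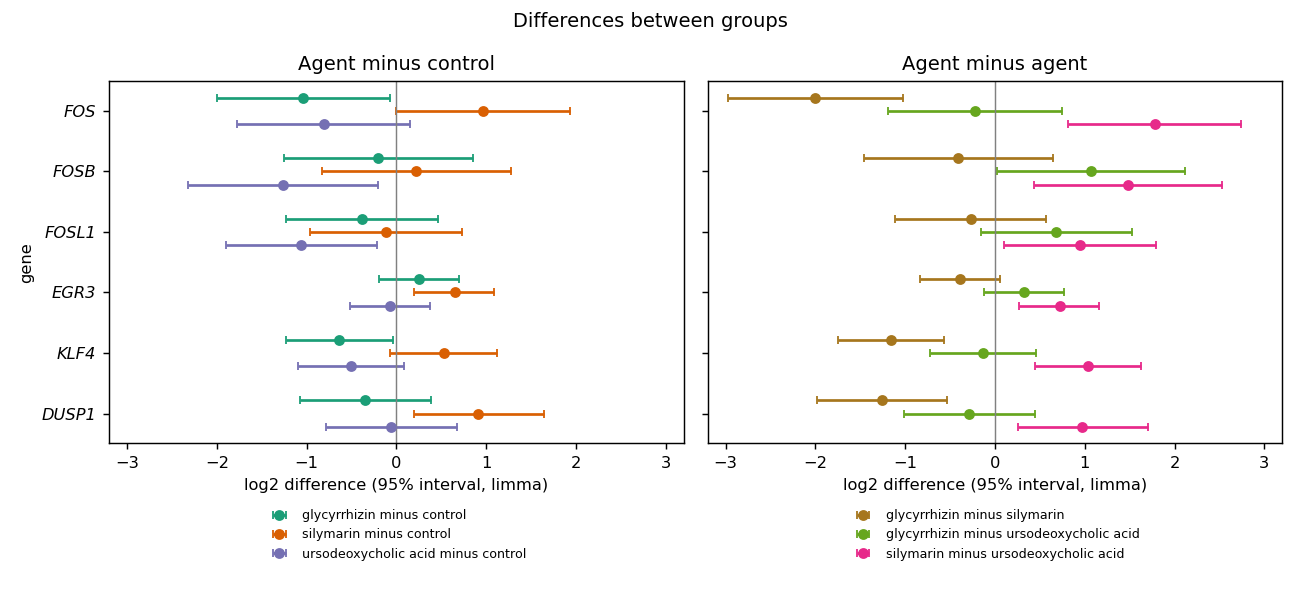
Log2 difference with its 95% interval from limma (horizontal axis) for each gene (vertical axis), for each agent minus control at left and for pairs of agents at right. The intervals for silymarin minus ursodeoxycholic acid lie above 0 for all 6 genes, from 0.72 for EGR3 to 1.78 for FOS, although no adjusted p passed.

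The 6 genes were then compared array by array, as deviations from each gene's mean over the 12 arrays. All 6 lay above their own mean on each of the 3 silymarin arrays, with a median deviation of 0.51, 1.12 and 0.37 log2 units on replicates 1, 2 and 3. On ursodeoxycholic acid replicate 2 all 6 lay below, and on replicates 1 and 3 of that agent 5 did, the exceptions being DUSP1 on replicate 1 and FOSB on replicate 3. Glycyrrhizin was mixed, with 5 below on replicate 1, 2 on replicate 2 and 4 on replicate 3. On the control arrays 4, 3 and 3 members lay above their mean. The share of all genes above or below their own mean on each array is not given here, so these counts have no background. They describe members chosen with earlier results of these data known. Silymarin replicate 2 had the highest value of the 12 arrays for 17.3% of all genes.

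**Figure D3:**
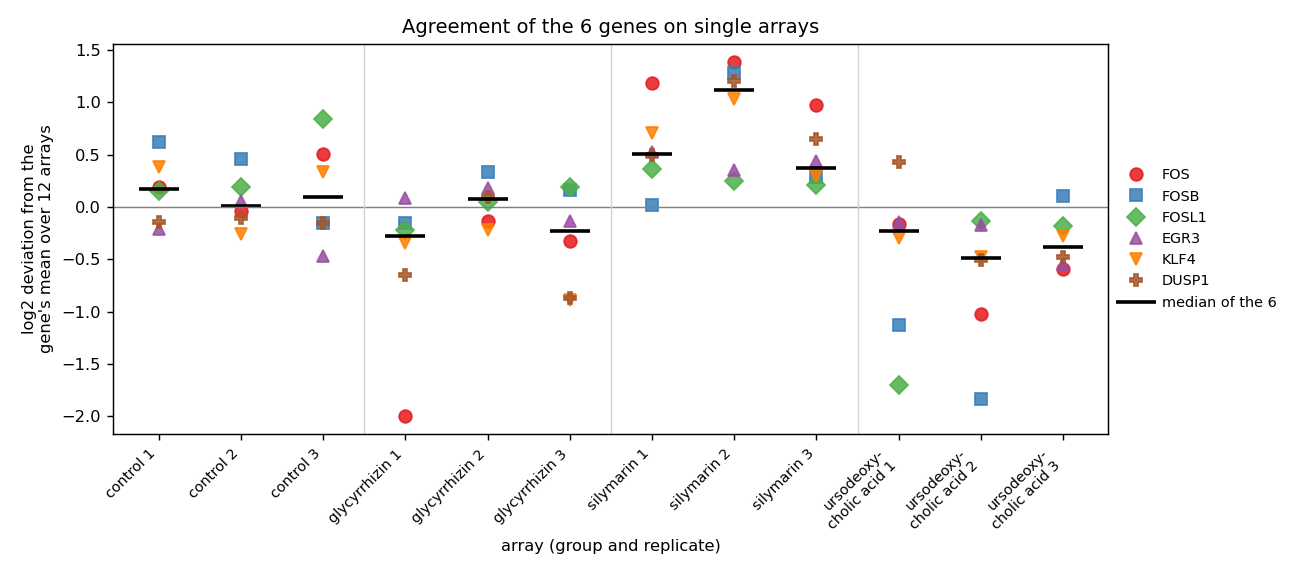
Deviation of each gene from its own mean over the 12 arrays in log2 units (vertical axis) on each array (horizontal axis), with a black bar for the median of the 6 genes. All 6 symbols lie above 0 on the 3 silymarin arrays and below 0 on ursodeoxycholic acid replicate 2. The share of all genes that did so is not given here.

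Across the 12 arrays, 14 of the 15 pairs of members had a positive Pearson r, with a median of 0.45. The permutations here moved arrays freely between the groups. A pair that shares a pattern of group means can therefore pass without agreement between arrays of a group. Because the members were chosen with earlier results of these data known, these counts and p-values describe the members and are not an independent test. The share of other gene pairs with as high an r is not given here. After adjustment over the 15 pairs, 3 passed: FOS with DUSP1 (r = 0.8, permutation p = 0.00201, adjusted p = 0.0151), KLF4 with DUSP1 (r = 0.8, permutation p = 0.00184, adjusted p = 0.0151) and FOS with KLF4 (r = 0.78, permutation p = 0.00362, adjusted p = 0.0181). Their Spearman rho was 0.81, 0.75 and 0.9 (permutation p = 0.00241, 0.00689 and 0.00019), and r was 0.72, 0.6 and 0.82 when the 2 arrays farthest from the median were left out. By rank FOS with FOSL1 passed too (rho = 0.82, permutation p = 0.00179, adjusted p = 0.012), with r = 0.37 (permutation p = 0.236). FOSL1 and DUSP1 had the lowest r (−0.03, permutation p = 0.918), with a rho of 0.39 (permutation p = 0.216), and FOSB and EGR3 the lowest rho (0.27, permutation p = 0.393), with an r of 0.32 (permutation p = 0.314).

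The same pairs were then compared within the groups. Computed on deviations from the group means, r was 0.47 for FOS with DUSP1, 0.48 for KLF4 with DUSP1 and 0.12 for FOS with KLF4 (exact permutation within groups, p = 0.316, 0.144 and 0.856). The median over the 15 pairs was −0.03, 7 were positive, and 0 passed. Without silymarin replicate 2 the 3 pairs had r = 0.74, 0.68 and 0.7, and 0 of 15 passed, each of the 3 at a permutation adjusted p of 0.11. Without the silymarin group, over 9 arrays, r was 0.53, 0.48 and 0.49.

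**Figure D4:**
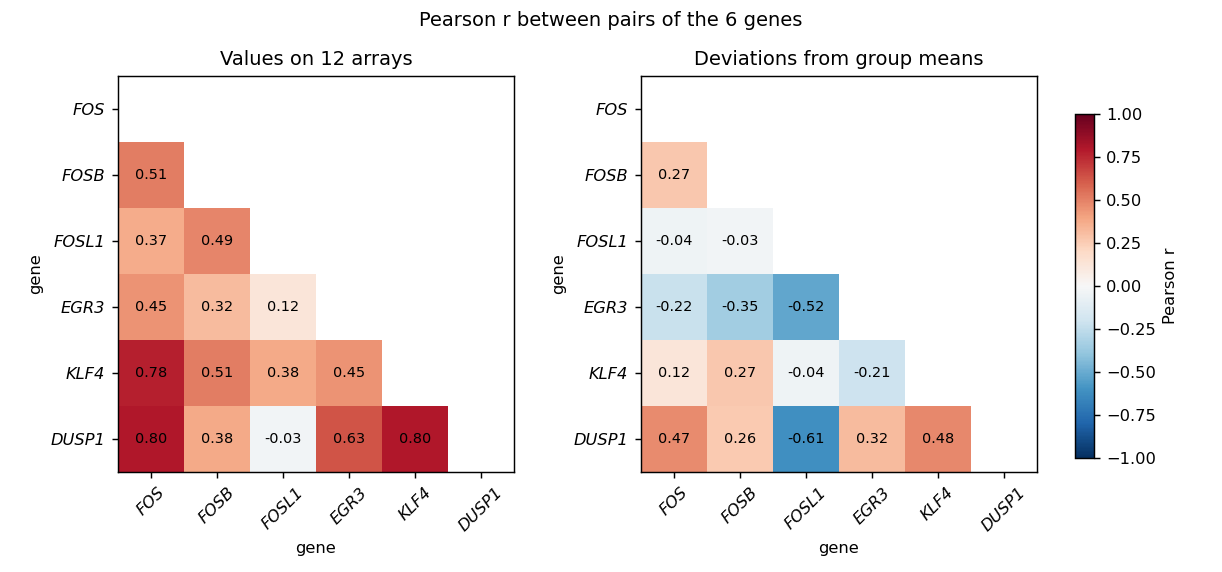
Pearson r for each pair of genes over the 12 arrays, from the values (left) and from deviations from the group means (right), coloured from −1 to 1. FOS, KLF4 and DUSP1 correlate at 0.78 to 0.8 at left and at 0.12 to 0.48 at right.

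The genes whose values ran most like each member over the 12 arrays were picked by the highest Pearson r among all genes, which makes high values likely. For FOS they were ECPAS, an adaptor of the proteasome, at r = 0.97, PAXBP1 at 0.93 and the lipid kinase PIP5K1B at 0.93. For KLF4 they were the kinase VRK1, the metabolic enzyme OGDH and the RNase P subunit RPP40, each at 0.96, and for DUSP1 the DNA polymerase POLB at 0.97, TAF7 at 0.96 and the tetraspanin CD9 at 0.96. EGR3 ran most like DNAI3 at 0.87, BCCIP at 0.84 and CD163 at 0.84. FOSB ran most like GDPD1 at 0.9, MTNR1B at 0.89 and FBXO16 at 0.88, and FOSL1 most like MX1 at 0.95, CMA1 at 0.93 and IL17D at 0.92. No other member was among these, and DUSP1 ranked number 177 and KLF4 number 235 of all genes in likeness to FOS.

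Of 18 other early transcription factors 15 were measured, JUNB, MYC and KLF10 not being analysed here. In limma 0 of the 15 passed in any of the 7 comparisons, and at an unadjusted p under 0.05 stood 2 with silymarin, 1 with ursodeoxycholic acid and 0 with glycyrrhizin against control, all higher. With silymarin 8 lay above control and 7 below (median log2 difference 0.08, against 0.02 over all genes), with ursodeoxycholic acid 6 and 9 (−0.14), and with glycyrrhizin 7 and 8 (−0.04). Over all genes 52.3%, 52.3% and 52.5% of means lay above control with these agents in turn. At an unadjusted p under 0.05 in limma, in either direction, stood 728, 770 and 792 of 13881 genes. The counts for the lists that follow have the same background. JUN, the main partner of FOS in AP-1, averaged 9.42 in control, 9.41 with silymarin, 9.4 with ursodeoxycholic acid and 9.77 with glycyrrhizin, and its silymarin difference of −0.01 had a 95% interval of −0.39 to 0.37. FOSL2, which encodes Fra-2, read lower with silymarin (9.08) than with ursodeoxycholic acid (9.94), a log2 difference of −0.85 (SE 0.3, adjusted p = 0.513 from limma) that runs opposite to the other FOS genes. ATF3, a stress-induced AP-1 partner, differed from control by −0.03 with silymarin, −0.19 with ursodeoxycholic acid and −0.08 with glycyrrhizin, each with an SE of 0.25. EGR1, the best known relative of EGR3, read 15.04 to 15.98 on the 12 arrays, next to the highest value in the table (15.99), which leaves little room for a higher value.

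The nuclear receptor NR4A2 differed from control by 0.57 with silymarin (SE 0.2, adjusted p = 0.865 from limma), by 0.21 with glycyrrhizin and by 0.08 with ursodeoxycholic acid. CEBPD, an acute phase regulator, was the listed factor with the smallest p in a comparison with control, at 0.83 with ursodeoxycholic acid (SE 0.25, adjusted p = 0.725), against 0.41 with glycyrrhizin and 0.19 with silymarin. Among 10 measured early response genes that are not DNA-binding factors, 4 lay above control with silymarin, 7 with ursodeoxycholic acid and 6 with glycyrrhizin, and 0 passed (2, 1 and 1 at an unadjusted p under 0.05). The growth regulator PHLDA1 averaged 10.85 in control and 11.73 with silymarin (log2 difference 0.88, SE 0.27, adjusted p = 0.836), and differed by 0.61 with glycyrrhizin and 0.17 with ursodeoxycholic acid. GADD45B differed by 0.49 with ursodeoxycholic acid, 0.42 with glycyrrhizin and −0.08 with silymarin (SE 0.2).

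Upstream, 0 of 15 measured kinases and factors passed in any comparison, with 7 above control for silymarin, 8 for ursodeoxycholic acid and 8 for glycyrrhizin (0, 1 and 2 at an unadjusted p under 0.05 in limma). SRF, which drives FOS and EGR genes through CArG boxes, averaged between 8.78 and 8.97 in the 4 groups, and its silymarin difference of −0.01 had a 95% interval of −0.38 to 0.36. MAPK3, the kinase ERK1, averaged 11.66 in control and 10.55 ± 0.84 (SD, n = 3) with glycyrrhizin (log2 difference −1.1, SE 0.35, adjusted p = 0.683 from limma), and differed by 0.13 with silymarin and −0.35 with ursodeoxycholic acid. The SRF cofactor MRTFB differed by −0.5 with glycyrrhizin, −0.5 with ursodeoxycholic acid and −0.32 with silymarin (SE 0.19). Of 10 other feedback inhibitors 5 lay above control with silymarin, 4 with ursodeoxycholic acid and 5 with glycyrrhizin, and 0 passed (1, 0 and 0 at an unadjusted p under 0.05). DUSP6, an ERK phosphatase, differed by 0.25 to 0.36 with the 3 agents (SE 0.48), and DUSP7 by −0.85 with silymarin, −0.24 with ursodeoxycholic acid and −0.06 with glycyrrhizin (SE 0.37). The dim DUSP5 differed by −1.77 with ursodeoxycholic acid, −1.61 with glycyrrhizin and −1.09 with silymarin (SE 0.81).

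Downstream, 0 of 9 measured AP-1 target genes passed, with a median log2 difference of 0.03 with silymarin, 0.07 with ursodeoxycholic acid and 0.18 with glycyrrhizin, and 1, 1 and 0 stood at an unadjusted p under 0.05 in limma. The cytokine IL6 and the haem oxygenase HMOX1, both dim, had the smallest p-values, IL6 at −1 with silymarin and HMOX1 at −1 with ursodeoxycholic acid (both SE 0.35, adjusted p = 0.847 and 0.832 from limma). With the other agents IL6 differed by −0.39 (glycyrrhizin) and 0.07 (ursodeoxycholic acid), and HMOX1 by −0.37 (glycyrrhizin) and −0.13 (silymarin). Since DUSP1 answers to glucocorticoids, 5 measured glucocorticoid-induced genes were set beside it. All 5 lay above control with silymarin (median 0.26), 1 did with ursodeoxycholic acid (−0.07) and 2 did with glycyrrhizin (−0.11), and 0 passed or stood at an unadjusted p under 0.05 in these comparisons. Over all genes 52.3%, 52.3% and 52.5% of means lay above control with these agents in turn. KLF9 differed by 0.46 with silymarin (SE 0.25, adjusted p = 0.932), −0.07 with ursodeoxycholic acid and −0.19 with glycyrrhizin. ZBTB16 differed by −0.47 with ursodeoxycholic acid (SE 0.26, adjusted p = 0.895), 0.3 with silymarin and 0.26 with glycyrrhizin.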

How the data were processed

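The authors deposited a table of linear intensity values, and limma is among the tools in the submitters' processing notes; which of its steps made the table, the scanner and any background correction are not stated there. At each rank the 12 arrays spread by a median of 1.22%, so the table was used as already normalized between arrays. Precision is limited by the 3 arrays per group, and no detection call was used. Of 27561 probes 15650 had 1 gene symbol, 0 several and 11911 none. Symbols were updated through RefSeq gene names to 13881 genes, and the probe brightest on average stood for a gene with several. A linear model with 1 mean per group was fitted to log2 intensities (limma 3.58.1, R 4.3.3, 8 residual and 2.7 prior degrees of freedom), with two-sided tests and Benjamini-Hochberg adjustment over all genes at 0.05. Correlations used 100000 permutations, two-sided, and exact permutation within groups for deviations.

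On arrays simulated for silymarin minus control over 13881 genes, 16.9% of 2-fold and 65.1% of 4-fold changes were found, and 4.76% of calls were false. In each of 10 runs 200 genes were changed. The noise was normal, independent between genes and without arrays that stand apart, so these rates may not hold for the real arrays. The members and gene lists were chosen with earlier results of these data known. Genes were named by rule: every member, the 3 genes most like each, and from each list, marker lists included, the 2 with the smallest p against control with a few fixed ones. Alternatives were a replicate block, renormalization, other uses of probes, an offset of 16, leaving out dim genes, a variance trend, array weights, the compared groups alone and leaving out each array.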

Additional observations from a re-analysis of the deposited data

How the results depend on the processing

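The members' differences kept its direction under all alternatives other than leaving out an array, except FOSB with silymarin against control, which was −0.03 with array weights. Leaving out 1 array moved these uncalled differences across 0: FOSB with silymarin (−0.16 to 0.47) and FOSL1 with silymarin (−0.24 to 0.11), EGR3 (−0.2 to 0.06) and DUSP1 (−0.37 to 0.11) with ursodeoxycholic acid, all against control, and FOS (−0.57 to 0.37), KLF4 (−0.26 to 0.07) and DUSP1 (−0.58 to 0.02) between glycyrrhizin and ursodeoxycholic acid. Calls of members were made only between glycyrrhizin and silymarin and only with the variance trend or without dim genes, 5 in all. For FOS in that comparison the adjusted p ran from 0.0247 to 0.469 over all settings.

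Counts of genes called, over the whole array, varied more. In the order glycyrrhizin, silymarin and ursodeoxycholic acid against control they were 1, 0 and 0, and 2, 1 and 3 with an offset of 16, 7, 2 and 3 without dim genes, 17, 4 and 6 with the variance trend, and 3, 1 and 4 with array weights. For the mean of the agents the count was 0, and 3 both without dim genes and with the variance trend. Glycyrrhizin against silymarin gave 7, and 19 with the offset, 164 without dim genes, 217 with the variance trend and 20 with array weights. The share of higher calls there was 2 of 7, 27 of 164 and 52 of 217. Silymarin against ursodeoxycholic acid gave 7, and 4 with every probe tested, 3 with the offset, 4 without dim genes and 16 with the variance trend. On the compared groups alone the counts were 0 for glycyrrhizin against control, glycyrrhizin against silymarin and silymarin against ursodeoxycholic acid, which leaves fewer arrays to estimate the spread. Leaving out 1 array gave 0 to 1 for glycyrrhizin, 0 to 3 for silymarin and 0 to 20 for ursodeoxycholic acid against control, 0 to 6 for glycyrrhizin against silymarin, 0 to 1 for glycyrrhizin against ursodeoxycholic acid and 0 to 32 for silymarin against ursodeoxycholic acid, the high values 20 and 32 without ursodeoxycholic acid replicate 3 and 3 without silymarin replicate 1. The 1 call of glycyrrhizin against control was kept in number only without ursodeoxycholic acid replicate 2 or 3, and glycyrrhizin against silymarin gave 0 without any 1 of their arrays except silymarin replicate 3, which left 1. Of 15 pairs of members 3 passed, 0 on deviations from group means and 0 to 3 without 1 array, the 0 without silymarin replicate 2 and 2 without silymarin replicate 1 or glycyrrhizin replicate 3. Except where said, causes were not tested.

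With the replicate number as a block, 0 genes passed in glycyrrhizin against control, glycyrrhizin against silymarin and silymarin against ursodeoxycholic acid, and no member passed in any comparison. Same-numbered arrays of different groups deviated together at r from −0.189 to 0.153 (median 0.024), and differently numbered ones at −0.231 to 0.272 (median −0.005). These ranges overlap, and whether the numbers pair the arrays was not tested.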

Other observations

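The spread between arrays of a group was set beside that of genes of like brightness. The residual SD was 0.58 log2 units for FOS and 0.42 for DUSP1, against medians of 0.35 and 0.24 over the genes of their brightness class (1 of 4 equal classes), so that 84.9% and 85.7% of those genes spread less. For FOSB it was 0.64 against 0.49 and for KLF4 0.32 against 0.24. FOSL1 (0.5 against 0.49) and EGR3 (0.2 against 0.24) lay near the median of their class. Within a group, DUSP1 spread least in control, at 8.25 to 8.3, and more with each agent, at 7.53 to 8.5 with glycyrrhizin, 8.9 to 9.61 with silymarin and 7.89 to 8.83 with ursodeoxycholic acid. With 3 arrays a group these differences in spread were not tested.

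NR4A3, a relative of NR4A2 chosen after its values were seen, had a log2 difference of 0.95 between silymarin and ursodeoxycholic acid (SE 0.27, adjusted p = 0.428 from limma). The MAP kinase phosphatase DUSP4, likewise chosen, read 8.63 to 8.75 with silymarin and 7.37 to 8.06 with glycyrrhizin. Its log2 difference, glycyrrhizin minus silymarin, was −1.02 (SE 0.26, adjusted p = 0.188 from limma), and 9.16% of all genes also did not overlap on that side. Of the 10 other feedback inhibitors measured, DUSP4 included, 5 lay higher with glycyrrhizin than with silymarin and 5 lower, and 51.3% of all genes lay higher.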
